A study of Mus musculus with 4 samples.

Results

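The effect of QNZ on mouse embryonic fibroblasts cultured alone was examined across 10189 genes, out of 21839 gene symbols with values in the series. QNZ is a quinazoline compound that the sample labels call an inhibitor of NF-κB. A gene was kept when its FPKM (fragments per kilobase of transcript per 1000000 reads) reached 1 with QNZ or without it. The lowest gene kept was Upk1b, with an FPKM of 1.001 with QNZ and 0.683 without it, and the highest gene left out was Zfp940, with 0.999 with QNZ and 0.597 without it.

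The groups compared were wild-type fibroblasts given QNZ for 48 h (QNZ) and wild-type fibroblasts without it at the same time (CON). A second pair, cocultured with bone marrow mesenchymal stem cells (MSCs) and given QNZ (Co_QNZ) or not (Co_CON), is set beside them. In all 4 the fibroblasts came from C57BL/6 embryos at day 13.5 and grew on an insert with 0.4 µm pores, and only their RNA was sequenced. Each group had 1 library, so the spread between cultures is unknown, no difference was tested, and every value describes these libraries. The dose of QNZ and the vehicle given to control cells are not stated in the sources used here.

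NF-κB is a family of paired transcription factors that inhibitory IκB proteins hold in the cytoplasm. Signals such as tumour necrosis factor, interleukin-1 or bacterial products activate a kinase complex that has IκB destroyed, and the freed subunits then switch on chemokines, cytokines, adhesion molecules and their own inhibitors. Fibroblasts use this pathway to call in immune cells. The RNA of the subunits does not measure their activity, since the pathway is controlled at the protein.

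The library with QNZ held 15778488 reads in genes and the library without it 15407979. An FPKM of at least 1 was reached by 10056 genes with QNZ and by 9590 without it. Of 15 fibroblast markers, 13 reached that level in both libraries. Their summed FPKM was 1256 with QNZ and 2187 without it, and S100a4 had no reads in either. Of 14 macrophage markers, 3 reached an FPKM of 1 in both libraries, the summed FPKM was 11.1 with QNZ and 8.08 without it, and Aif1, C1qa, C1qb and C1qc had no reads in either. None of 8 endothelial markers reached that level in either library. Of 4 neural markers 1 reached it in both libraries, and their summed FPKM was 17.3 with QNZ and 56.3 without it. That gene was Tubb3, a tubulin of neurons, with 16.7 with QNZ and 55.6 without it (a difference of log2(FPKM + 1) of -1.67), and with 9.36 in the coculture with QNZ and 21.9 in the coculture without it (-1.14). The part of these cell types in the differences below was not tested, and in bulk RNA fewer cells of a type and less RNA per cell cannot be told apart.

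Differences are given as log2(FPKM + 1) with QNZ minus log2(FPKM + 1) without it, and a gene was counted when it differed by at least 1 in size. On this scale 126 genes (1.24%) were higher with QNZ and 169 (1.66%) were lower. Enpp5 was the gene nearest inside the limit among the higher genes, at 1.001, and Optn the nearest outside it, with an FPKM of 5.76 with QNZ and 2.39 without it. On the lower side Angptl4 was just inside, at -1.003, and P4ha3 just outside, at -0.99. Of the 295 counted genes, 294 had a ratio of reads, each divided by its library's total, whose exact 95% interval left out 1, and these intervals cover counting error only. The libraries were alike across most genes, with Pearson's r of 0.973 across genes, which are not independent replicates. The typical gene was slightly higher with QNZ, since the median difference was 0.20 and 69.9% of genes had a positive one. Of the 126 higher genes 18 passed the filter through the library with QNZ alone, and of the 169 lower genes 19 passed through the library without it.

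Among the lower genes were 19 of 38 measured interferon-stimulated genes, 7 of 20 chemokines, 8 of 18 collagens and 9 of 31 contractile and actin genes. Among the higher genes were 12 of 43 genes of the amino acid response that the transcription factor ATF4 controls, 4 of 27 targets of NRF2, 4 of 26 targets of p53 and 4 of 11 RNAs encoded in the mitochondrial genome. None of the 16 measured subunits and inhibitors of NF-κB was counted, where 1.24% of all genes were counted higher and 1.66% lower, and a list of this size holds too few genes to be read against those shares. The levels of 31 genes from these groups in both libraries are plotted.

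**Figure D1:**
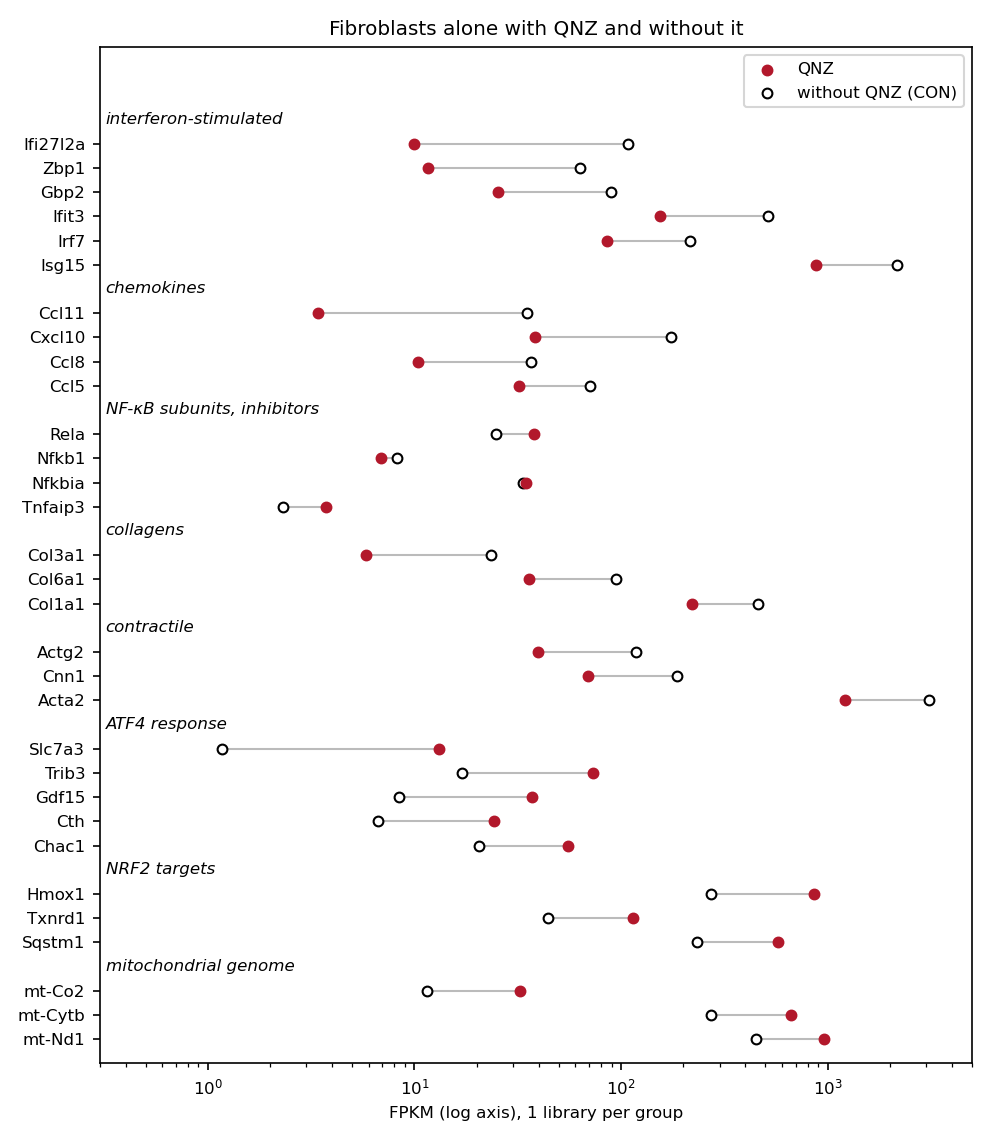
FPKM of genes from 8 groups in fibroblasts with QNZ (filled points) and without it (open points), on a log axis, with 1 library per group and so no error bars. The filled point lies left of the open one for the interferon-stimulated genes, chemokines, collagens and contractile genes shown and right of it for the ATF4 response, NRF2 targets and mitochondrial RNAs, while Nfkbia had 34.8 with QNZ and 33.4 without it.

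Among 5 subunit genes of NF-κB, 4 were measured and none was counted. Rela, which encodes the main activating subunit p65, had an FPKM of 37.7 with QNZ and 24.8 without it, a difference of 0.59 and a read ratio of 1.52 (exact 95% interval 1.41 to 1.64). Relb had 8.34 with QNZ and 5.71 without it (0.48). Nfkb1, which encodes p105 and p50, had 6.90 with QNZ and 8.23 without it (-0.22). Nfkb2 had 19.3 with QNZ and 17.6 without it (0.13). All 4 subunit RNAs were present in both libraries, and none differed by the size of 1.

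Of the 12 measured inhibitors and feedback genes of the pathway, none was counted, and their median difference was 0.14, against 0.20 over all genes. With median-of-ratios scaling, which brings the median over all genes to -0.01, the median of this list turned to -0.07. Nfkbia encodes IκBα, the inhibitor that NF-κB itself induces and a common readout of its activity. Its FPKM was 34.8 with QNZ and 33.4 without it (0.06), with a read ratio of 1.04 (0.947 to 1.15). Nfkbib had 21.6 with QNZ and 19.3 without it (0.16), and Nfkbie 1.91 with QNZ and 1.68 without it (0.12). Nfkbiz, an atypical IκB that acts in the nucleus, had 35.2 with QNZ and 39.0 without it (-0.14). The lowest value in this list was that of Bcl3, another nuclear IκB, with 5.17 with QNZ and 7.84 without it (-0.52). Tnfaip3 encodes A20, a ubiquitin-editing enzyme that ends signalling, and had 3.71 with QNZ and 2.30 without it (0.51). Its partners Tnip1 (0.08) and Tnip2 (0.32), the deubiquitinases Cyld (0.35) and Otud7b (0.77), N4bp1 (0.45) and the RNase gene Zc3h12a (-0.24) completed the list. The differences of the list thus ran from -0.52 for Bcl3 to 0.77 for Otud7b.

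No kinase or adaptor of the pathway was counted among 18 measured, with a median of 0.30. Traf6, a ubiquitin ligase downstream of interleukin-1 and Toll-like receptors, was highest, at 3.39 with QNZ and 1.35 without it (0.90), and Myd88, the adaptor of the same receptors, was lowest, at 9.77 with QNZ and 15.5 without it (-0.62). Of 10 measured receptors none was counted, and their median was -0.21. Lists of 18 and 10 genes are too small to be read against the 1.24% of all genes counted higher and the 1.66% counted lower. Il1r1, the interleukin-1 receptor, had 3.92 with QNZ and 6.26 without it (-0.56).

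Textbook NF-κB target genes split. Of 41 measured, 7 were counted lower, where 1.66% of all genes were, none was counted higher, 29 had a negative difference and the median was -0.40. Cxcl10 (chr5:92346638-92348889 in mm10, minus strand) encodes a chemokine for T cells that both NF-κB and interferon signals induce, and had an FPKM of 38.3 with QNZ and 175 without it (-2.16). Steap4, a metalloreductase gene of the inflammatory response, had 1.99 with QNZ and 8.82 without it (-1.72). Hp, which encodes the haemoglobin-binding acute-phase protein haptoglobin, had 2.17 with QNZ and 7.92 without it (-1.49). The other counted targets were Psmb9 (-1.41), Cebpd (-1.13), Ccl5 (-1.12) and Mmp9 (-1.03), and Mmp9 was at -0.99 once the trend with gene length described below was removed.

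Many classical targets were not among them. Il6 had an FPKM of 5.17 with QNZ and 8.45 without it (-0.61). Cxcl1, a chemokine for neutrophils, had 23.9 with QNZ and 31.8 without it (-0.40), and Ccl2, a chemokine for monocytes, had 539 with QNZ and 781 without it (-0.53). Vcam1, an adhesion molecule for leucocytes, had 19.9 with QNZ and 23 without it (-0.20). These 4 were lower with QNZ but below the size of 1. On the other side Icam1, a further adhesion molecule, had 3.68 with QNZ and 2.19 without it (0.55), Ptgs2, the inducible cyclooxygenase, had 126 with QNZ and 98.1 without it (0.36), and Mmp13, a collagenase, had 5.90 with QNZ and 2.57 without it (0.95).

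Of 20 measured chemokines, 7 were counted lower and 0 higher, and the median was -0.63. Ccl11 encodes eotaxin, which attracts eosinophils, and had an FPKM of 3.40 with QNZ and 35.2 without it (-3.04), on 58 and 587 reads, a read ratio of 0.0965 (0.0724 to 0.127). Cxcl14 had 3.71 with QNZ and 15.1 without it (-1.77). Ccl8, a chemokine for monocytes, had 10.4 with QNZ and 36.7 without it (-1.72). Cxcl9 (-1.61), like Cxcl10 a ligand of the receptor CXCR3, was also counted, with Ccl12 (-1.19) and Ccl5 (-1.12). Cxcl9, with 0.693 with QNZ and 4.17 without it, passed the filter only through the library without QNZ. Cxcl12, the chemokine that keeps blood stem cells in the bone marrow, had 27.3 with QNZ and 26.2 without it (0.06). Of 17 measured interleukins and related cytokines none was counted, too few genes to be read against the 1.24% of all genes counted higher and the 1.66% counted lower. Il11 had 5.88 with QNZ and 2.68 without it (0.90), and Csf3 was lowest, with 0.987 with QNZ and 2.16 without it (-0.67). The median of these cytokines was -0.13 and turned to 0.14 once the length trend was removed.

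Of the gene lists examined, the interferon-stimulated genes held the most lower genes. Interferons act through transcription factors that bind a short element, the interferon-stimulated response element, in front of antiviral genes. Of 38 measured genes of this list 19 were counted lower (1.66% of all genes were) and 0 higher. In this list 37 had a negative difference, and the median was -0.99. The exception was Trim25, a ubiquitin ligase of RNA sensing, at 0.15.

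Ifi27l2a had an FPKM of 9.99 with QNZ and 108 without it (-3.31), with a read ratio of 0.0926 (0.0718 to 0.118). Zbp1, a sensor of left-handed nucleic acid, had 11.6 with QNZ and 63.1 without it (-2.35). Isg15, a ubiquitin-like modifier, had 875 with QNZ and 2159 without it (-1.30). Irf7 and Usp18 control the response itself. Irf7, a transcription factor that amplifies it, had 85.1 with QNZ and 216 without it (-1.33), and Usp18, which removes ISG15 and damps the receptor, had 86.2 with QNZ and 187 without it (-1.11). Ifit3 had 154 with QNZ and 515 without it (-1.74). The guanylate-binding protein genes Gbp2 (-1.77) and Gbp3 (-1.56) and the oligoadenylate synthetase genes Oas1g (-1.80), Oas1a (-1.39) and Oas2 (-1.30), whose products make the activator of RNase L, were counted as well.

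Some genes of interferon signalling and RNA sensing differed by less. Irf9, a transcription factor of the response, had an FPKM of 19 with QNZ and 23.7 without it (-0.31), and Stat2, its partner, had 29.0 with QNZ and 32.5 without it (-0.16). Ddx58, which encodes the RNA sensor RIG-I, had 23.8 with QNZ and 28.6 without it (-0.25). Within the list the differences thus ran from -3.31 to 0.15.

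Of 19 measured genes of MHC class I antigen presentation 4 were counted lower, with a median of -0.62. Among these were the 3 catalytic subunits of the immunoproteasome, the interferon-induced form of the proteasome that cuts peptides for presentation. Psmb8 had an FPKM of 5.85 with QNZ and 20.9 without it (-1.67), Psmb9 had 2.25 with QNZ and 7.63 without it (-1.41), and Psmb10 had 20.1 with QNZ and 50.1 without it (-1.28). The fourth was H2-T23, a non-classical class I gene, with 23.7 with QNZ and 73.8 without it (-1.60). B2m, the light chain of every class I molecule, had 2338 with QNZ and 2388 without it (-0.03). No ordinary subunit of the proteasome was counted among 31 measured, where 1.24% of all genes were counted higher and 1.66% lower. A list of this size holds too few genes to be read against those shares.

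The promoters of the lower interferon-stimulated genes are shown because many hold the element named above. RefSeq windows of 300 bases, 250 before and 50 after the start of transcription (GRCm38.p6, the assembly of mm10), were matched by symbol for 8137 of the 10189 genes. The element was searched on both strands as GAAA, any 2 bases and GAAA again, and overlapping matches counted once per gene. It was present in 8 of the 13 counted genes of the list that had a window (61.5%), in 18 of 28 measured genes (64.3%), in 24 of all 113 lower genes with a window (21.2%), in 4 of 93 higher genes (4.30%) and in 3.82% of all genes with a window. The stretches below end before the RefSeq start of transcription, though the deposited gene start of Gbp2 (142620602) lies within its stretch. Capitals mark the element, which reads TTTC, 2 bases and TTTC where it lies on the other strand.
Gbp2 (chr3:142620584-142620633, plus strand): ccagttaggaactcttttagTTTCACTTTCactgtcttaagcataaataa
Ifit3 (chr19:34583353-34583402, plus strand): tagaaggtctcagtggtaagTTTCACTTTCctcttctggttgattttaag
Ifit3b (chr19:34607749-34607798, plus strand): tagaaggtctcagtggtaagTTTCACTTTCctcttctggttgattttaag
Gbp3 (chr3:142559979-142560028, plus strand): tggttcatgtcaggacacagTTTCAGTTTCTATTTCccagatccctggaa
Igtp (chr11:58199502-58199551, plus strand): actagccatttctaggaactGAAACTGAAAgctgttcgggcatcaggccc
Isg15 (chr4:156200867-156200916, minus strand): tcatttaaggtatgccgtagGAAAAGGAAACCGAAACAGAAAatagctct

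The stretch of Isg15 holds 3 overlapping matches. Ifit3 and Ifit3b have the same 50 bases here and are near-identical copies, so reads could have been split between them, and their values are uncertain for each copy alone. The same holds for Oas1a and Oas1g, and for Tgtp1 and Tgtp2. Reads of the related genes Ifi27l2a and Ifi27l2b, of 463 and 1093 bases, could also have been shared in part. A match is a description of the letters and not a site in use. Over all 311 genes with the element in their window the median difference was 0.08, against 0.20 over the 8137 genes with a window. Of these 311 genes 24 (7.72%) were counted lower, against 1.39% of all genes with a window. Counted higher were 4 (1.29%), against 1.14% of all genes with a window.

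The NF-κB site was searched by its common consensus on both strands in the same windows. It was present in 2 of the 3 counted NF-κB target genes with a window (66.7%) and in 13 of 29 measured ones (44.8%). Of all counted genes it was in 12 of 113 lower ones (10.6%) and in 5 of 93 higher ones (5.38%), against 6.39% of all genes with a window. The 520 genes with a match had a median difference of 0.21, and 12 of them (2.31%) were counted lower against 1.39% of all genes with a window. The median of genes with this motif was thus about that of all genes with a window (0.20), while their share counted lower was larger. The part of NF-κB in these differences was not tested.

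Of 18 measured collagens 8 were counted lower (1.66% of all genes were) and 0 higher, and the median was -0.75. Col3a1, the fibrillar collagen of soft tissue, had an FPKM of 5.82 with QNZ and 23.4 without it (-1.84), with a read ratio of 0.249 (0.231 to 0.268). The chains of type I collagen, the main collagen of scar and bone, were Col1a1, with 222 with QNZ and 462 without it (-1.06), and Col1a2, with 94.1 with QNZ and 211 without it (-1.16). When values were rescaled to TPM, 6 of the 18 collagens were counted lower, and Col1a1, at -0.94, was no longer among them. All 3 measured chains of the microfibrillar type VI collagen were counted, namely Col6a1 (-1.37), Col6a2 (-1.30) and Col6a3 (-1.17). Col12a1 (-1.25) and Col5a1 (-1.01) completed the count. Basement membrane chains stood apart, since Col4a1 had 116 with QNZ and 119 without it (-0.04) and Col4a2 had 105 with QNZ and 118 without it (-0.17).

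Among 36 measured matrix glycoproteins, proteoglycans and crosslinking enzymes 6 were counted lower (1.66% of all genes were) and 0 higher. Their median was -0.32. Mfap4, a protein of elastic fibres, had 3.07 with QNZ and 14.7 without it (-1.95). Loxl3, a lysyl oxidase that crosslinks collagen, had 39.8 with QNZ and 122 without it (-1.60), and Tnc, which encodes tenascin-C, had 223 with QNZ and 461 without it (-1.04), or -0.92 when TPM were used. Fn1, which encodes fibronectin, lay on the other side, with 446 with QNZ and 277 without it (0.68), and so did Lox, with 274 with QNZ and 192 without it (0.51). The matrix genes therefore did not move as one block. Of 17 measured fibroblast markers 6 were counted lower (1.66% of all genes were) and 0 higher. Among these markers 14 had a negative difference and the median was -0.48. Thy1 had 168 with QNZ and 379 without it (-1.17) and Pdgfra 5.54 with QNZ and 15.3 without it (-1.32), whereas the transcription factor genes Prrx1, with 26.0 with QNZ and 25.1 without it, and Twist1, with 32.0 with QNZ and 31.4 without it, were nearly level. Ddr2, a collagen receptor, was the highest of the list, with 17.5 with QNZ and 9.01 without it (0.89, or 1.05 as TPM).

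Of 31 measured contractile and actin cytoskeleton genes 9 were counted lower (1.66% of all genes were) and 0 higher, with a median of -0.37. The list holds smooth muscle genes that activated fibroblasts, called myofibroblasts, express, beside actin genes of other muscle and of all cells. Acta2, which encodes α-smooth muscle actin, the usual myofibroblast marker, had an FPKM of 1217 with QNZ and 3113 without it (-1.35), with a read ratio of 0.391 (0.386 to 0.395). Cnn1, which encodes calponin, had 69.4 with QNZ and 188 without it (-1.42). Actg2, the enteric smooth muscle actin, had 39.8 with QNZ and 118 without it (-1.55), and Myh11, the smooth muscle myosin heavy chain, had 2.84 with QNZ and 9.10 without it (-1.39). Myl9 (-1.28), Tagln (-1.12), the skeletal muscle actin gene Acta1 (-1.09), Tagln2 (-1.04) and Lmod1 (-1.01) were the others. The actins of all cells were closer, with Actb at 1480 with QNZ and 1836 without it (-0.31). After the length trend was removed 4 of the list were counted lower, and the median was -0.38. When values were rescaled to TPM, 6 were counted lower.

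Serum response factor drives many of these genes through an A/T-rich element called the CArG box. It was found by its consensus, which is the same on both strands, in 2 of the 6 counted contractile genes with a window (33.3%), in 8 of 25 measured ones (32.0%) and in 1.57% of all genes with a window. Of all counted genes with a window it was in 3 of 113 lower ones (2.65%) and in 3 of 93 higher ones (3.23%). Capitals mark it in the stretches of both counted contractile genes.
Myl9 (chr2:156775283-156775332, plus strand): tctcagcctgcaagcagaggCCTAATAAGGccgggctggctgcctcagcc
Acta1 (chr8:123894819-123894868, minus strand): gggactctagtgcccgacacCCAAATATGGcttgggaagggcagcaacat

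On the higher side the list of the ATF4 response held the most genes. ATF4 is translated when amino acids run short or when the endoplasmic reticulum or mitochondria are under stress, and it raises amino acid transporters, synthesis enzymes and tRNA synthetases. Of 43 measured genes of this list 12 were counted higher (1.24% of all genes were) and 0 lower, 41 had a positive difference and the median was 0.74. Slc7a3 (chrX:101079210-101086020 in mm10, minus strand), a transporter of cationic amino acids, had an FPKM of 13.2 with QNZ and 1.17 without it (2.71), on 786 and 68 reads, a read ratio of 11.3 (8.80 to 14.7). Trib3, a pseudokinase that feeds back on ATF4, had 73.3 with QNZ and 17.1 without it (2.04). Gdf15, a secreted stress hormone, had 37.1 with QNZ and 8.41 without it (2.02).

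The other counted genes of this list cover transport, synthesis and feedback. Cth, which makes cysteine from cystathionine, had an FPKM of 24.2 with QNZ and 6.67 without it (1.71). Slc7a11, the cystine importer, had 2.01 with QNZ and 0.242 without it (1.28) and passed the filter only through the library with QNZ. Chac1, which degrades glutathione, had 55.6 with QNZ and 20.6 without it (1.39), and Ppp1r15a, which encodes GADD34, a phosphatase subunit that ends the response, had 58.3 with QNZ and 24.4 without it (1.23). Aldh1l2 (1.43), a mitochondrial enzyme of folate metabolism, Vldlr (1.22), Slc7a1 (1.15), Gpt2 (1.04) and Wars (1.01) were the rest. Atf4 itself had 228 with QNZ and 146 without it (0.64), Asns, the asparagine synthetase, had 162 with QNZ and 98.2 without it (0.72), and Ddit3, which encodes CHOP, had 42.7 with QNZ and 24.4 without it (0.78). Only Cebpb, with 22.2 with QNZ and 34.7 without it (-0.62), and Ddit4 (-0.13) had a negative difference. With median-of-ratios scaling 8 of the list were counted higher and the median was 0.49.

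ATF4 binds, paired with a C/EBP protein, to a composite element that was searched as TGATGNAA on both strands. It was present in 4 of the 8 counted genes of the list with a window (50%), in 12 of 36 measured ones (33.3%), in 13 of all 93 higher genes (14.0%), in 9 of 113 lower genes (7.96%) and in 2.64% of all genes. The 3 of these promoters in which the match and its flanks end before the start of transcription are given, with the element in capitals, and Slc7a11 holds 2 matches facing each other.
Chac1 (chr2:119351029-119351076, plus strand): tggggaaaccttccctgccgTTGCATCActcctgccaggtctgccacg
Slc7a11 (chr3:50443652-50443699, minus strand): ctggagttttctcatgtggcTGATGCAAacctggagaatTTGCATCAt
Vldlr (chr19:27216800-27216847, plus strand): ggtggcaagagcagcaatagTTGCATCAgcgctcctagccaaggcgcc

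Of 27 measured targets of NRF2, the transcription factor of the oxidative stress response, 4 were counted higher (1.24% of all genes were) and 0 lower. Their median was 0.49. Hmox1, which encodes the haem-degrading enzyme haem oxygenase 1, had an FPKM of 864 with QNZ and 272 without it (1.66), a read ratio of 3.18 (3.09 to 3.26). Txnrd1, a thioredoxin reductase, had 115 with QNZ and 44.3 without it (1.35). Sqstm1, the autophagy receptor p62, had 573 with QNZ and 233 without it (1.30), and Slc7a11, given above, was the fourth. Nqo1, a quinone reductase often used as the readout of NRF2, had 33.5 with QNZ and 20.4 without it (0.69), and Nfe2l2, which encodes NRF2, had 31.9 with QNZ and 21.8 without it (0.53). The glutathione transferase genes Gstp1 (-0.24) and Gstm1 (-0.22) were on the other side. The antioxidant response element, searched as TGACNNNGC on both strands, was in 1 of the 3 counted genes with a window, in 8 of the 21 measured targets with one (38.1%) and in 17.0% of all genes. Of all genes counted it was in 15 of 93 higher ones (16.1%) and in 15 of 113 lower ones (13.3%). The counted target was Txnrd1. Its stretch comes from 1 of 3 windows, at a RefSeq start inside the deposited span of the gene (chr10:82833951-82897712). The element is in capitals.
Txnrd1 (chr10:82859094-82859142, plus strand): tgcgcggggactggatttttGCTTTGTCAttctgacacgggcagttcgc

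Among 26 measured targets of p53 4 were counted higher (1.24% of all genes were) and 0 lower, with a median of 0.45. Gadd45a, a growth arrest gene that ATF4 also induces, had an FPKM of 11.7 with QNZ and 2.83 without it (1.73). Pmaip1, which encodes the cell death protein NOXA, had 24.1 with QNZ and 9.93 without it (1.20). Mdm2, the inhibitor that p53 induces, had 57.0 with QNZ and 27.2 without it (1.04), and Perp was also counted (1.09). Cdkn1a, the main arrest gene downstream of p53, had 188 with QNZ and 187 without it (0.01), and Bax, a cell death gene, had 56.4 with QNZ and 81.0 without it (-0.52). With median-of-ratios scaling Pmaip1 (0.96), Perp (0.88) and Mdm2 (0.79) were no longer counted, which left 1 gene of the list.

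Of 11 measured RNAs encoded in the mitochondrial genome 4 were counted higher, none had a negative difference and the median was 0.94. Reads of the mitochondrial genome were 0.580% of the total with QNZ (Wilson 95% interval 0.577 to 0.584, counting error only) and 0.291% without it (0.288 to 0.294). mt-Co2, a subunit of cytochrome oxidase, had an FPKM of 32.2 with QNZ and 11.5 without it (1.41), mt-Cytb had 665 with QNZ and 273 without it (1.28), and mt-Nd1, a subunit of complex I, had 961 with QNZ and 448 without it (1.10). After the length trend was removed 8 of these genes were counted, and with median-of-ratios scaling 2 were. The medians of the subunits that the nucleus encodes for the same complexes did not follow. Of 36 measured nuclear genes of complex I none was counted, and of 39 genes of complexes II to V none was. With 1.24% of all genes counted higher and 1.66% lower, lists of these sizes are too small to be read by their counts. The median was -0.22 for complex I, with 31 genes negative, and -0.26 for complexes II to V. These nuclear genes are short, and after the length trend was removed the medians were 0.02 for complex I and -0.05 for complexes II to V, against 0.20 over all genes.

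Of 25 measured cholesterol synthesis genes 2 were counted higher, with a median of 0.52. Idi1, an isomerase of the mevalonate pathway, had an FPKM of 10.1 with QNZ and 4.04 without it (1.15), and Msmo1, a sterol oxidase, had 30.2 with QNZ and 14.1 without it (1.04). Neither was counted with median-of-ratios scaling, at 0.92 and 0.80, and Msmo1 was at 0.96 after the length trend was removed. Of 26 measured growth factors 2 were counted lower. Ptn, which encodes pleiotrophin, had 2.77 with QNZ and 11.2 without it (-1.69), and Vegfd, a growth factor of lymphatic vessels, had 3.13 with QNZ and 9.24 without it (-1.31). Its relative Vegfa had 53 with QNZ and 26.4 without it (0.98). No gene was counted among 41 measured of DNA replication (median 0.24), 39 of mitosis (0.03), 17 heat shock proteins (0.11) or 16 housekeeping genes (-0.02). Over all genes 1.24% were counted higher and 1.66% lower, and lists of these sizes hold too few genes to be read against those shares. Gapdh was the lowest housekeeping gene, with 93.4 with QNZ and 140 without it (-0.58). The medians of the mitosis, heat shock and housekeeping lists changed sign with scaling: they were -0.15, -0.15 and -0.28 with median-of-ratios scaling, and 0.15, 0.23 and 0.10 when TPM were used.

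Some of the largest differences lay outside the lists described above, though Crabp1, Eno3, Dusp4 and Grem1 are members of other lists examined. Apod, which encodes the lipid carrier apolipoprotein D, fell most among named genes, with an FPKM of 0.738 with QNZ and 22 without it (-3.73), on 30 and 875 reads. Crabp1, a binding protein for retinoic acid, had 974 with QNZ and 3601 without it (-1.89), and Eno3, the muscle form of enolase, had 47.1 with QNZ and 203 without it (-2.08). Lrrc15, a membrane protein of activated fibroblasts, had 10.8 with QNZ and 58.8 without it (-2.34). On the higher side Angptl6 had 6.89 with QNZ and 0.656 without it (2.25), Acot2, a mitochondrial acyl-CoA thioesterase, had 19.2 with QNZ and 3.61 without it (2.13), and Dusp4, a phosphatase that turns off MAP kinases, had 83.6 with QNZ and 25.2 without it (1.69). Grem1, a BMP antagonist, had 124 with QNZ and 60.0 without it (1.04) and was at 0.78 with median-of-ratios scaling. Dkk1, the secreted Wnt inhibitor that the study concerns, had 0 reads with QNZ, which allows up to 0.190 CPM (reads per 1000000 reads), and 2 reads without it, and was not among the genes kept. In the coculture pair Dkk1 had 0 reads in Co_QNZ and 21 in Co_CON, where its FPKM was 0.582.

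**Figure D2:**
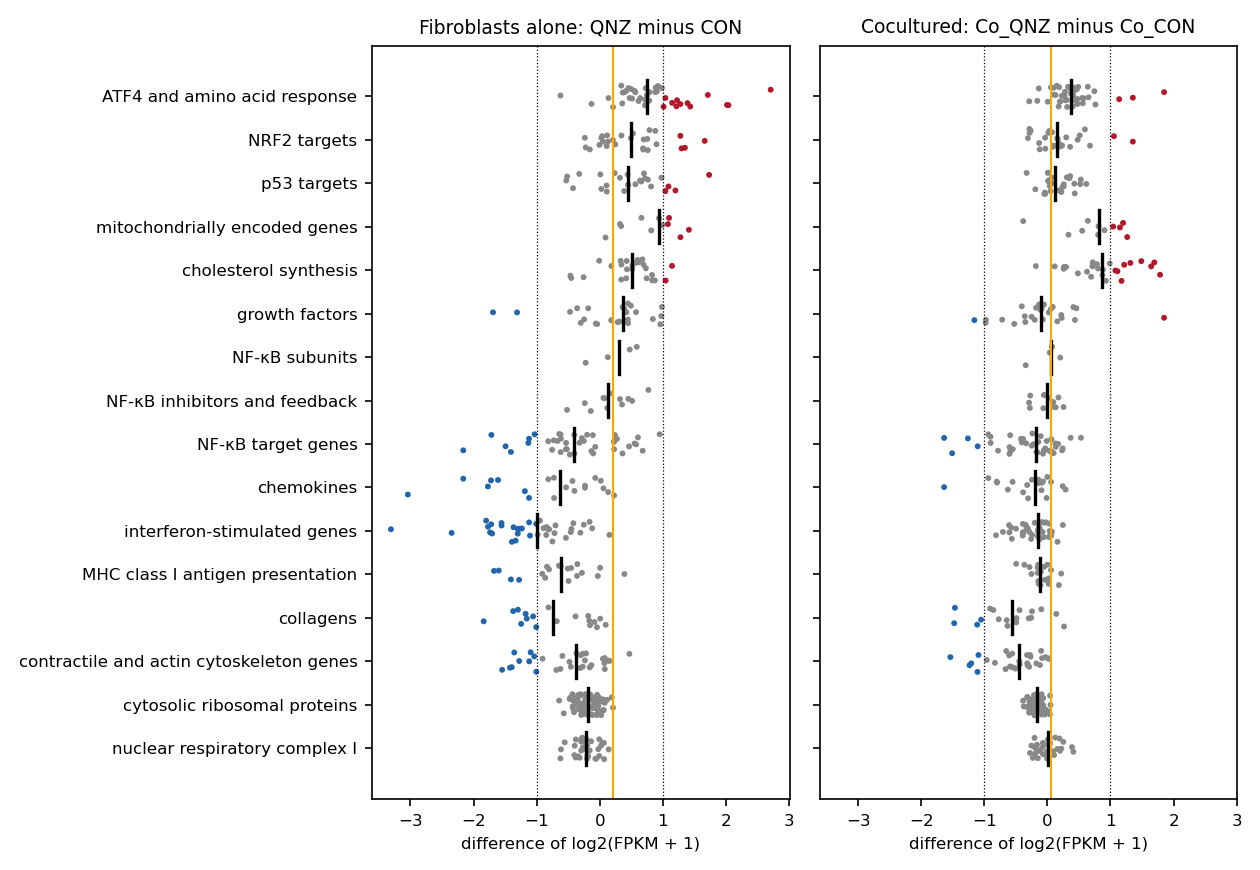
Difference of log2(FPKM + 1) for each measured member of 16 gene lists (points), with the list median (black bar), the median over all genes (orange line) and the size of 1 (dotted lines), in fibroblasts alone (left) and cocultured fibroblasts (right). In fibroblasts alone 19 of 38 interferon-stimulated genes lie beyond -1 and 12 of 43 ATF4 genes beyond 1, and in the coculture pair the medians of these lists were -0.15 and 0.37.

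The difference between the libraries moved with gene length. Across genes Spearman's rho between length and the difference was 0.35, as a description, since all points share these libraries. The median difference was -0.09 in the shortest of 10 groups of the genes (45 to 1755 bases) and 0.39 in the longest group (9565 to 41473 bases). In the coculture pair rho was 0.09. After a smooth trend with length was taken out, 145 genes (1.42%) were higher and 136 (1.33%) lower, which kept 92 of the 126 higher and 126 of the 169 lower genes. The share of counted genes that were higher was 42.7% as reported, 13.1% after median-of-ratios scaling and 75.8% when TPM were used. Interferon-stimulated genes, with 18 counted lower after the trend was removed, collagens with 8 and the ATF4 list with 13 counted higher changed little. What moves with gene length in these libraries was not tested.

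**Figure D3:**
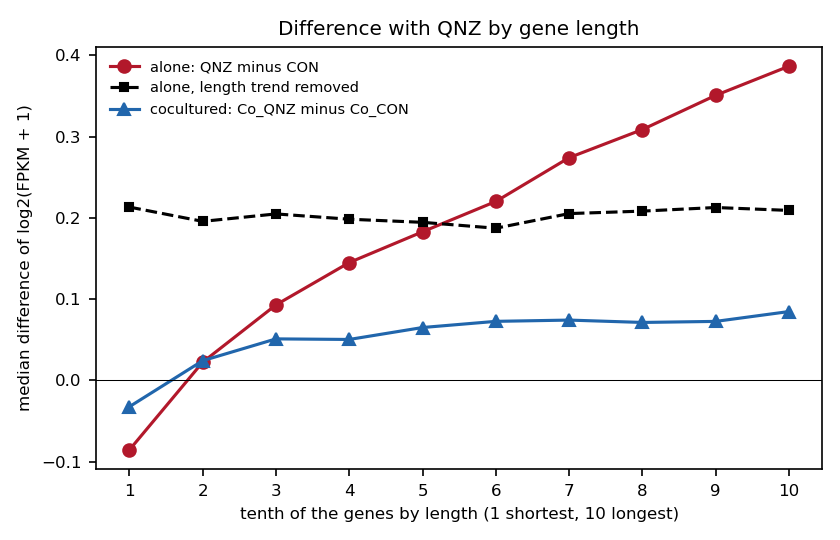
Median difference of log2(FPKM + 1) in 10 groups of genes of rising length, for fibroblasts alone as deposited (red) and after the length trend was removed (black), and for the coculture pair (blue). The red line runs between -0.09 in the shortest group and 0.39 in the longest, and the blue line between -0.03 and 0.08.

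The same drug was also given in coculture, in a pair that shares no library with this one. There 30 of the same 10189 genes (0.294%) were higher and 65 (0.638%) were lower with QNZ. Of the 126 genes higher with QNZ in fibroblasts alone, 115 (91.3%) had a positive difference in coculture, where 60.5% of all genes had one, and 13 were counted there, which is 10.3% of that list and 43.3% of the coculture list. Of the 169 lower genes 157 (92.9%) were negative in coculture, where 39.4% of all genes were, and 23 were counted there, 13.6% of that list and 35.4% of the coculture list. No gene was counted in opposite directions. The sizes were smaller in coculture, with medians of 0.40 for the higher genes, against 1.11 in fibroblasts alone, and -0.49 for the lower genes, against -1.30 in fibroblasts alone. The genes were chosen for their size in fibroblasts alone, so the smaller size in the other pair is not independent of that choice.

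The groups carried over unevenly. Interferon-stimulated genes had a median of -0.15 in coculture and -0.99 in fibroblasts alone. Ifit3, for example, had an FPKM of 139 in Co_QNZ and 141 in Co_CON (-0.02). Ccl11 had 23.7 in Co_QNZ and 25.2 in Co_CON (-0.09), and Cxcl10 had 50.8 in Co_QNZ and 53.3 in Co_CON (-0.07). The levels without QNZ also differed between the pairs. Ifit3 had 515 in CON and 141 in Co_CON, beside 154 in QNZ. Cxcl10 had 175 in CON and 53.3 in Co_CON, beside 38.3 in QNZ. Ccl11 stayed closer, with 35.2 in CON and 25.2 in Co_CON, beside 3.40 in QNZ. With 1 library per group, whether CON was high by itself was not tested. Other members lay lower in Co_QNZ without being counted. Ifi27l2a had 17.2 in Co_QNZ and 31.1 in Co_CON (-0.81), Gbp2 had 32.7 in Co_QNZ and 53.9 in Co_CON (-0.70), and Zbp1 had 11.8 in Co_QNZ and 18.6 in Co_CON (-0.61). Ifi27l2b, which is not on the list, was counted in both pairs, with 1.18 in Co_QNZ and 7.20 in Co_CON (-1.91).

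Collagens, contractile genes, mitochondrial RNAs and cholesterol synthesis genes stayed closer. Collagens had a median of -0.56 in coculture, and Col3a1 had 19.5 in Co_QNZ and 56.1 in Co_CON (-1.48). Contractile genes had -0.44, and Acta2 had 456 in Co_QNZ and 985 in Co_CON (-1.11). Mitochondrial RNAs had 0.81, and their reads were 1.49% of the total in Co_QNZ and 0.738% in Co_CON. The median of the ATF4 list was 0.37, where Cth had 13.1 in Co_QNZ and 5.42 in Co_CON (1.14). Cholesterol synthesis genes had a median of 0.87 in coculture, against 0.52 in fibroblasts alone, and Msmo1 had 17.5 in Co_QNZ and 4.90 in Co_CON (1.64). The difference between the pairs was not tested.

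**Figure D4:**
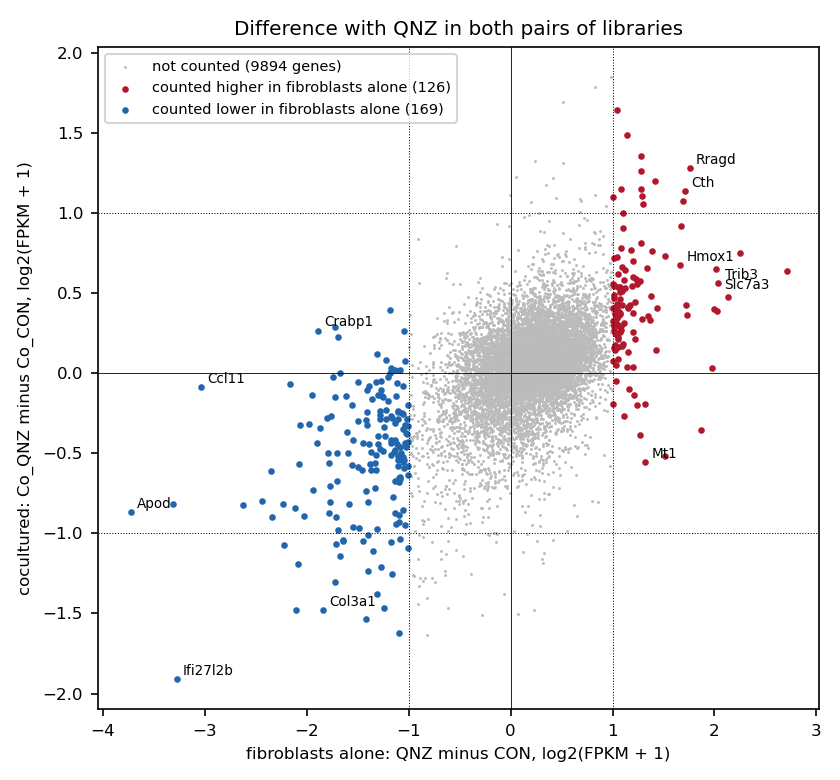
Difference of log2(FPKM + 1) with QNZ in fibroblasts alone (horizontal) and in cocultured fibroblasts (vertical) for 10189 genes, with the 126 counted higher in red and the 169 counted lower in blue. Of the red points 115 lie above 0 and of the blue points 157 lie below 0, and 13 and 23 of them pass the size of 1 in both pairs.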

How the data were processed

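RNA of mouse embryonic fibroblasts was sequenced, with 1 library per group and a kit that marks strand. Per the labels, STAR 2.5.4b was used for mapping to mm10, and Cuffnorm and Cufflinks 2.2.1 are listed for expression. The table deposited by the authors gives whole-number read counts without normalization, gene lengths and FPKM. The deposited FPKM equal counts divided by length and column total (0 gene IDs differed, at a relative tolerance of 1e-06). How reads were counted, with which annotation and whether strand was used is not stated in these sources. Values of overlapping or antisense genes and of near-identical copies are therefore uncertain. Of 278 genes that the naming rule took, 72 overlap a gene on the other strand in GENCODE, among them Cxcl10, Gbp2, Psmb8, Psmb9, Loxl3, Mfap4, Tnc and Sqstm1, and 23 overlap one on the same strand, among them Col3a1, Pdgfra and mt-Nd1.

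The FPKM of 23 symbols with more than 1 of the 21862 gene IDs were summed. The FPKM minimum was 1 in either library, the pseudocount 1 and the size rule 1, which stood in for a test. Intervals of read ratios are exact (Clopper-Pearson, 95%), those of the mitochondrial read share are Wilson intervals (95%), and a count of 0 allows 3 reads. The length trend was removed with lowess (span 0.3), keeping the overall median. Members and the 55 gene lists were chosen with earlier results of these data known. Named genes were the 15 largest rises and 15 largest falls counted at an FPKM of at least 5 (without predicted, Rik, ribosomal, small nucleolar and micro RNA genes), all NF-κB subunits and inhibitors, up to 5 members of each other list with the largest differences, the 10 largest rises and falls counted in both pairs, and Dkk1. Other genes were chosen after their values were seen. Not every gene under this rule is described, and 1 gene is not reported here. Alternatives were a pseudocount of 0.1, no filter, a minimum of 5, median-of-ratios scaling, TPM, the gene ID with most reads, sizes of 2 and of 1.5 times, the length correction, the interval rule and the coculture pair. Removing trends with length and GC content (3 rounds) and subtracting the median were added after seeing the data. Calculations were made in Python 3.11.15 with statsmodels 0.14.6 (lowess), scipy 1.17.1 (intervals), pandas 2.3.3 and numpy 2.4.6, and plots with matplotlib 3.10.9.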

Additional observations from a re-analysis of the deposited data

Results flagged for a closer look

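Of the named genes counted in fibroblasts alone, 7 had a difference with QNZ of the other sign in the coculture pair. With 1 library per group the difference between the pairs was not tested, and none of the 7 was counted in coculture. Crabp1, the retinoic acid binding protein gene, was at 0.27 in coculture (FPKM 380 in Co_QNZ and 316 in Co_CON), against -1.89 in fibroblasts alone. Ccl8 was at 0.29 in coculture and -1.72 alone, and Mmp9 at 0.075 in coculture and -1.03 alone. Among genes higher with QNZ in fibroblasts alone, Mt1, a metallothionein gene, was at -0.55 in coculture (109 in Co_QNZ and 161 in Co_CON), against 1.32 alone (117 in QNZ and 46.3 in CON). Prl2c3 was at -0.35 in coculture and 1.87 alone, and reads could have been split with its near-identical copy Prl2c2. Ero1l, an oxidase of the endoplasmic reticulum, was at -0.20 in coculture and 1.24 alone. Cldn4, a tight junction gene, was at -0.19 in coculture and 1.31 alone, and its FPKM stayed below 5 in all 4 libraries.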

How the results depend on the processing

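With 1 library per group no replicate could be left out, and no paired analysis was possible because each group had 1 library and the labels give no replicate numbers. Genes counted higher numbered 126 and genes counted lower 169. With a pseudocount of 0.1 they were 496 and 259, with median-of-ratios scaling 42 and 279, with the median subtracted 44 and 277, with a size of 2 they were 6 and 17, with a size of 1.5 times 1370 and 474, and in the coculture pair 30 and 65. As TPM 547 were higher and 175 lower. The median difference over genes was 0.20, and it was 0 with no filter or with the median subtracted, -0.010 with median-of-ratios scaling, 0.35 as TPM and 0.057 in the coculture pair. The difference by gene length gave a Spearman's rho of 0.35, and it was 0.00015 after the length trend was removed, -0.00258 after trends with length and GC content were removed and 0.093 in the coculture pair. Among named genes with a size of at least 1 in either setting, the sign turned in the coculture pair alone, for Prl2c3 (-0.35), Ccl8 (0.29), Ero1l (-0.20), Mt1 (-0.55), Mmp9 (0.075), Crabp1 (0.27), Lyz2 (-1.48) and Cldn4 (-0.19). The other settings kept the counts within 1.5 times. The cause of these changes was not tested. Without replicates, depth limits only the counting error.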

Other observations

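The following genes were chosen after their values were seen and no list covers them, so their values are given as a description, beside the 1.24% of all genes counted higher. Rragd, a GTPase of the pathway that passes the amino acid state of the lysosome to mTORC1, had an FPKM of 9.29 with QNZ and 2.05 without it (1.76), and Fnip2, a partner of folliculin in that pathway, had 4.46 with QNZ and 1.23 without it (1.29). With median-of-ratios scaling both were still counted, at 1.55 for Rragd and 1.11 for Fnip2, and both were counted in the coculture pair, at 1.28 for Rragd and 1.11 for Fnip2. The related genes Rragc (1.06), Fnip1 (1.07), Smcr8 (1.10) and C9orf72 (1.05) were counted as deposited but not with median-of-ratios scaling (Rragc 0.80, Fnip1 0.90, Smcr8 0.87 and C9orf72 0.85). After the length trend was removed Fnip1 (0.96) and Smcr8 (0.97) were not counted. In the coculture pair these 4 lay between 0.17 for C9orf72 and 0.53 for Fnip1. Flcn, which encodes folliculin, was not counted, with 13.3 with QNZ and 6.22 without it (0.99), and neither were Tfeb (-0.03) and Tfe3 (0.10), transcription factor genes.

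Of 2 further gene families, also chosen after values were seen and taken whole by symbol, the measured members are given beside the 1.66% of all genes counted lower. All 3 measured Ifitm genes were counted lower. Ifitm1, with an FPKM of 0.869 with QNZ and 7.71 without it, passed the filter only through the library without QNZ. Ifitm3, a membrane protein against virus entry, had an FPKM of 1095 with QNZ and 2350 without it (-1.10), Ifitm2 was at -1.22 and Ifitm1 at -2.22. After the length trend was removed Ifitm2 (-0.80) and Ifitm3 (-0.69) were no longer counted, and in the coculture pair Ifitm1 (-1.07) was counted. Of 7 measured Ifi200 genes 5 were counted lower, namely Ifi206 (-1.78), Ifi209 (-1.41), Ifi205 (-1.32), Ifi203 (-1.13) and Ifi204 (-1.06), while Ifi211 was at -0.97 and Ifi207 at 0.18. Ifi205 (0.561 with QNZ and 2.89 without it) and Ifi206 (0.311 with QNZ and 3.51 without it) passed the filter only through the library without QNZ. None of the 7 was counted in the coculture pair, and reads could have been split between these related copies.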
